A study of Mus musculus with 12 samples.

Results

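The atypical chemokine receptor genes measured here were Ackr1, Ackr2, Ackr3, Ackr4 and Ccrl2, taken by name as the receptors that bind chemokines or chemerin without the usual signalling. They were 5 of the 19938 genes with a named probe set, and each had exactly 1 probe set under its current symbol. Expression was measured on 12 single-colour whole-transcript arrays of RNA from bone marrow derived mast cells, mast cells that arise when marrow is kept in the cytokines of this lineage. The cultures came from wild type C57BL/6 mice and from ACKR2-/- (D6-/-) mice whose strain is also given as C57BL/6. Arrays were labelled 2 or 10 weeks of culture, with 3 arrays in each of 4 groups. All 4 groups shared female donors aged 4 to 6 weeks, medium with stem cell factor (SCF) at 12.5 ng/ml and interleukin 3 (IL-3) at 10 ng/ml, and no other agent was named. Floating cells were moved off the adherent layer after 48 hours, and the culture was described as uniform only from 4 weeks on. Some 2-week cells were enriched on CD117, the product of Kit, without a record of which arrays that concerns. Replicates are called biological in the labels without naming an animal or culture, so p-values measure the spread between these samples, which may be technical.

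Atypical chemokine receptors have the fold of G protein coupled receptors but do not start the G protein signal that moves cells. They take up, carry or hold their ligands instead and so shape chemokine gradients. ACKR1 binds many inflammatory CC and CXC chemokines and is best known from red cells and venules. ACKR2, the receptor deleted in these mice, clears inflammatory CC chemokines and is known from lymphatic endothelium and innate-like B cells. ACKR3 takes up CXCL12 and CXCL11, and ACKR4 takes up CCL19, CCL21 and CCL25. CCRL2 does not take up its ligand chemerin but holds it at the surface of activated myeloid cells, mast cells among them, where cells with the receptor CMKLR1 can meet it.

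Of the 12 arrays, 4 went against their labels and are given first, because every comparison with a 2-week group rests on them. The linear fit used below shares each gene's spread over all 12 arrays. These 4 therefore also enter the SE and p-value of comparisons at 10 weeks. Fcer1a, which encodes the IgE-binding chain of the mast cell IgE receptor, lay between 4.83 and 5.47 (log2 signal) on array 3 labelled wild type at 2 weeks and on all 3 arrays labelled ACKR2-deficient at 2 weeks. On the other 8 arrays it lay between 13.74 and 14.14. Kit lay between 7.51 and 9.18 on the same 4 arrays and between 13.61 and 13.90 on the other 8. The mean of 9 mast cell markers was 6.68 to 6.81 on the 4 and 12.09 to 13.02 on the 8, while the mean of 6 B cell markers was 9.97 to 12.77 on the 4 and 6.59 to 7.07 on the 8. B cell markers were not alone in this. T and NK cell markers averaged 8.77 to 10.89 on the 4 and 6.29 to 6.85 on the 8. Monocyte and macrophage markers averaged 11.30 to 11.66 against 7.24 to 10.43, and dendritic cell markers 8.54 to 9.64 against 6.84 to 7.36. Basophil markers were lower on the 4 (6.74 to 6.90 against 9.67 to 12.05), and neutrophil and eosinophil markers overlapped. Xist, the RNA that coats the silenced X chromosome, lay at or below 6.23 on the 4 and at or above 13 on the 8. Kdm5d, a gene of the Y chromosome, lay between 10.06 and 10.51 on the 4 and between 6.04 and 6.42 on the 8, although all mice are labelled female. Across genes, array 3 labelled wild type at 2 weeks had a Pearson correlation of 0.997 with array 2 labelled ACKR2-deficient at 2 weeks. Over all genes, 3000 (15.0%) were higher on each of the 8 arrays than on any of the 4, and 2343 (11.8%) were lower on each. Groups are therefore named by their labels throughout. Genotype, weeks of culture and what sets these 4 arrays apart cannot be told apart in a comparison that holds all 3 arrays labelled ACKR2-deficient at 2 weeks.

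**Figure D1:**
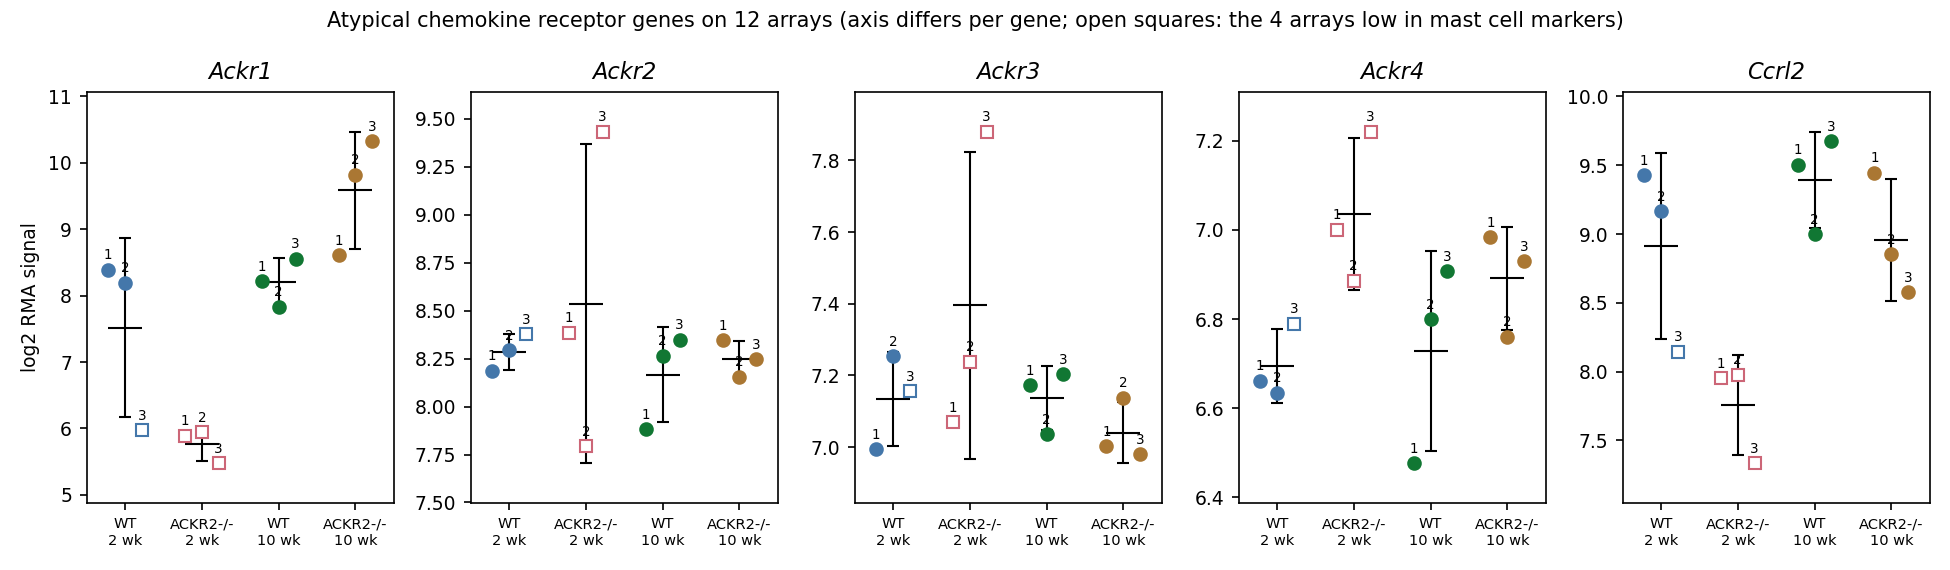
Log2 signal of each atypical chemokine receptor gene on the 12 arrays, in 4 groups of 3 (WT, wild type; wk, weeks of culture), with numbered points for arrays, a horizontal line for the group mean and bars for 1 SD; the vertical axis differs per gene. Open squares are the 4 arrays low in mast cell markers: Ackr1 lies between 5.48 and 5.97 there and between 7.83 and 10.33 on the other 8, while Ackr2 ranges from 7.79 to 9.43 within the open squares alone.

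Ackr1 and Ccrl2 were the 2 genes of the family that moved with this split, and the sequences before their RefSeq starts are shown for that reason. Capitals mark matches to the kappaB consensus of NF-kB, by its name, and to the GATA motif AGATAA or TGATAA, each searched on both strands from 250 bases before to 50 bases after a start. Where matches overlap, the capitals run together. The 250 bases before the start of Ackr1 (chr1:173333504-173333753, minus strand, GRCm38.p6) and of the first of 3 Ccrl2 starts (chr9:111057519-111057768, minus strand, GRCm38.p6) follow, with a 30-base stretch of Ackr1 after its start (chr1:173333461-173333490, minus strand) that holds its GATA match.

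Ackr1 before start: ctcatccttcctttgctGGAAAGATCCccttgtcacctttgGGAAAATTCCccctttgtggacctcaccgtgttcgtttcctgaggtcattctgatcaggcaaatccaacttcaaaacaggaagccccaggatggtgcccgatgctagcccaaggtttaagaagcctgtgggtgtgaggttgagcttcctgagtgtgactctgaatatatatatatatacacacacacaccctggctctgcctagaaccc
Ackr1 after start: agccctgggcacTTATCTtggagccacagc
Ccrl2 before start: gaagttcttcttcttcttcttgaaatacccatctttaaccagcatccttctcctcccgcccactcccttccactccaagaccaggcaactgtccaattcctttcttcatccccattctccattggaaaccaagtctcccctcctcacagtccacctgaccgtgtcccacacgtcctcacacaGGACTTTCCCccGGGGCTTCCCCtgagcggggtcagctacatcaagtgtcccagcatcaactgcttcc

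The GATA match of Ackr1 began at base 26 after the start and read AGATAA on the opposite strand. Its kappaB matches began 233 and 209 bases before the start. The first Ccrl2 window held kappaB matches beginning 68, 56 and 55 bases before the start and no GATA match, while the windows of the other 2 Ccrl2 starts each held 2 GATA matches and no kappaB match. The Ackr2 window held kappaB matches only, that of Ackr4 held 1 kappaB match, and that of Ackr3 held neither. Of all 32851 windows of this length in the RefSeq table, 18.6% held the GATA motif and 26.8% the kappaB consensus, so such matches are common.

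Ackr2, the gene deleted in the mutant mice, had no lower signal on their arrays. Its probe set (10590427) read 8.19, 8.29 and 8.38 on the arrays labelled wild type at 2 weeks and 8.39, 7.79 and 9.43 on those labelled ACKR2-deficient at 2 weeks. At 10 weeks it read 7.88, 8.26 and 8.35 on the wild type and 8.34, 8.16 and 8.25 on the ACKR2-deficient arrays. In both weeks the genotypes overlapped, and 1 array, ACKR2-deficient array 3 at 2 weeks, stood above the other 11, which lay within 7.79 to 8.39. By limma, fitted over all genes with Benjamini-Hochberg adjustment, the ACKR2-deficient arrays differed by 0.25 ± 0.32 (SE; adjusted p = 0.764) at 2 weeks and by 0.08 ± 0.32 (adjusted p = 0.999) at 10 weeks. The unadjusted 95% intervals of these differences, -0.47 to 0.97 and -0.63 to 0.80, left room for moderate changes either way. Their width comes from the spread over all 4 groups, which was widest on the ACKR2-deficient arrays at 2 weeks. It is therefore not the spread of the 10-week arrays alone. Which part of Ackr2 was deleted is not given in the sources used here, and without detection calls a signal cannot be set against background, so the probe set does not check the genotype.

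The array highest in Ackr2 was also the array highest in B cell transcripts, and Ackr3 (7.88) and Ackr4 (7.22) were highest on it too. On array 3 labelled ACKR2-deficient at 2 weeks, where Ackr2 read 9.43, the 6 B cell markers averaged 12.77, against 9.97 to 10.13 on the other 3 arrays low in mast cell markers. The 9 markers of marginal zone and B1 cells, the innate-like B cells, averaged 10.10 there and 9.33 to 9.42 on those 3 arrays. On the remaining 8 they averaged 7.53 to 8.29. The list was mixed: Cr2, Cd1d1, S1pr3, Bhlhe41 and Myof were higher there than on those 3 arrays, and Dtx1 and Zbtb32 were near level. Cd5 (8.06 against 12.11 to 12.15) and Cd9 (8.77 against 9.37 to 9.61) were lower. The mean of the T and NK cell markers ran the other way, at 8.77 on this array and 10.76 to 10.89 on the 3. Cd3d, Cd3e and Cd3g were far lower on this array, and Cd2 slightly lower. Ncr1 was higher on it (9.26 against 6.41 to 6.86), and Klrb1c (7.89) lay within the range of the 3 (7.60 to 8.46). Within the 3 arrays of like B cell level, Ackr2 read 8.38, 8.39 and 7.79, which spans the level of the 8 arrays rich in mast cell transcripts. The part of B cell transcripts in the Ackr2 signal was not tested. Without that array the Ackr2 difference was -0.20 between the genotypes at 2 weeks and 0.16 between 10 and 2 weeks in the ACKR2-deficient arrays, so the direction of both turned on 1 array. In bulk RNA, fewer cells of a type and less RNA per cell cannot be told apart.

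The genes that flank Ackr2 on chromosome 9 were, in the RefSeq order, Ccdc13 and Higd1a on one side and Cyp8b1 and 1700048O20Rik on the other. None of the 4 passed the threshold in any comparison between genotypes or weeks. The lowest p was that of 1700048O20Rik, an uncharacterised transcript, which differed by 1.37 ± 0.43 (adjusted p = 0.225) between the genotypes at 2 weeks. Of all genes, those with a profile nearest to Ackr2 over the 12 arrays, by the root mean square difference of mean-centred log2 values, were Pdzd2 (0.16), Ltk (0.17) and Kcnj1 (0.17), against a standard deviation of 0.38 for Ackr2 itself.

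Ackr1 had the widest range of the 5 genes, 4.85 log2 units over the 12 arrays. Its probe set (10360344) read 8.39, 8.20 and 5.97 on the arrays labelled wild type at 2 weeks and 5.89, 5.95 and 5.48 on those labelled ACKR2-deficient at 2 weeks. At 10 weeks it read 8.22, 7.83 and 8.56 for wild type and 8.61, 9.82 and 10.33 for ACKR2-deficient arrays. The 4 low values were those of the 4 arrays low in mast cell markers, and the 2 highest were ACKR2-deficient arrays 2 and 3 at 10 weeks. Group means fell in the order ACKR2-deficient at 10 weeks, 9.59 ± 0.88 (SD, n = 3), wild type at 10 weeks, 8.20 ± 0.36, wild type at 2 weeks, 7.52 ± 1.35, and ACKR2-deficient at 2 weeks, 5.77 ± 0.25. The middle pair overlapped, and no pair of neighbours in this order passed the threshold. ACKR2-deficient arrays lay above every wild type array at 10 weeks by a narrow gap (8.61 against 8.56) and below every wild type array at 2 weeks (5.95 against 5.97).

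Ackr1 rose by 3.82 ± 0.60 from 2 to 10 weeks on the arrays labelled ACKR2-deficient (limma adjusted p = 0.0137), with all 3 arrays at 10 weeks above all 3 at 2 weeks. In that comparison 16.8% of all genes passed the threshold and 10.5% passed as higher. The 2 groups did not overlap for 44.5% of all genes, and for 26.7% the 10-week arrays were all higher. The call was lost without ACKR2-deficient array 2 at 10 weeks (adjusted p = 0.0555) or without array 3 (0.0584), at differences of 3.70 and 3.45. On the arrays labelled wild type the difference between weeks was 0.68 ± 0.60 (adjusted p = 0.801), and without the 4 arrays low in mast cell markers it was -0.09 (adjusted p = 0.995).

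At 10 weeks Ackr1 differed by 1.38 ± 0.60 between ACKR2-deficient and wild type arrays, with an unadjusted 95% interval of 0.05 to 2.72. Its unadjusted p of 0.0435 gave an adjusted p of 0.611, and it gave 0.257 without the 4 arrays low in mast cell markers. At 2 weeks the difference was -1.75 ± 0.60 (adjusted p = 0.225). Without wild type array 3 it was -2.52 (adjusted p = 0.00133), a fit that sets arrays rich in mast cell transcripts against arrays that lack them. The change of the genotype difference between the weeks was 3.13 ± 0.85, with an unadjusted p of 0.00400 and an adjusted p of 0.424. Without wild type array 3 at 2 weeks it was 3.91 (adjusted p = 0.000834).

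At 10 weeks the arrays highest in Ackr1 were also those lowest in transcripts of other myeloid cells. On the arrays labelled ACKR2-deficient, where Ackr1 read 8.61, 9.82 and 10.33, the 8 neutrophil markers averaged 7.44, 6.84 and 6.72, against 7.70 to 10.53 on the wild type arrays. The 6 monocyte and macrophage markers averaged 9.19, 7.40 and 7.24, against 9.11 to 10.43, and the 5 basophil markers 11.58, 9.67 and 9.68, against 11.71 to 12.05. Among the basophil markers Mcpt8 (11.81, 7.41 and 7.02) and Prss34 (11.30, 7.52 and 7.51) were far lower on arrays 2 and 3, whereas Lilr4b stayed at 13.36 to 13.63, and the median difference of the list was -0.22. All 8 neutrophil, all 6 monocyte and macrophage and 4 of 5 basophil markers had a lower mean on the ACKR2-deficient arrays, against 48.4% of all genes. None of them passed the threshold, and no gene of the whole series did. Mast cell markers averaged 12.57, 12.19 and 12.09 on the same 3 arrays and 12.44 to 13.02 on the wild type arrays, with 5 of 9 higher and 4 lower in mean. The part of these cell types in the Ackr1 difference was not tested. ACKR1 is best known from red cells and venules, and single markers of both lists changed from 2 to 10 weeks on the ACKR2-deficient arrays. The 7 endothelial markers averaged 7.11 to 7.31 on the 4 arrays low in mast cell markers and 7.52 to 7.75 on the other 8. Only Tek lay lower on each of the 4 (5.89 to 6.30 against 8.98 to 9.84). Cdh5 lay higher on the 4 (7.76 to 8.13 against 6.67 to 7.07), and the other 5 overlapped. In the comparison of weeks, Tek was higher at 10 weeks (3.39 ± 0.80, limma adjusted p = 0.0194), Cdh5 lower (-1.10 ± 0.21, adjusted p = 0.0137) and 5 not called. The 4 red cell markers averaged 7.06 to 7.62 over all 12 arrays, with Alas2 lower (-1.10 ± 0.21, adjusted p = 0.0137) and 3 not called. The part of these cells in the Ackr1 signal was not tested.

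**Figure D2:**
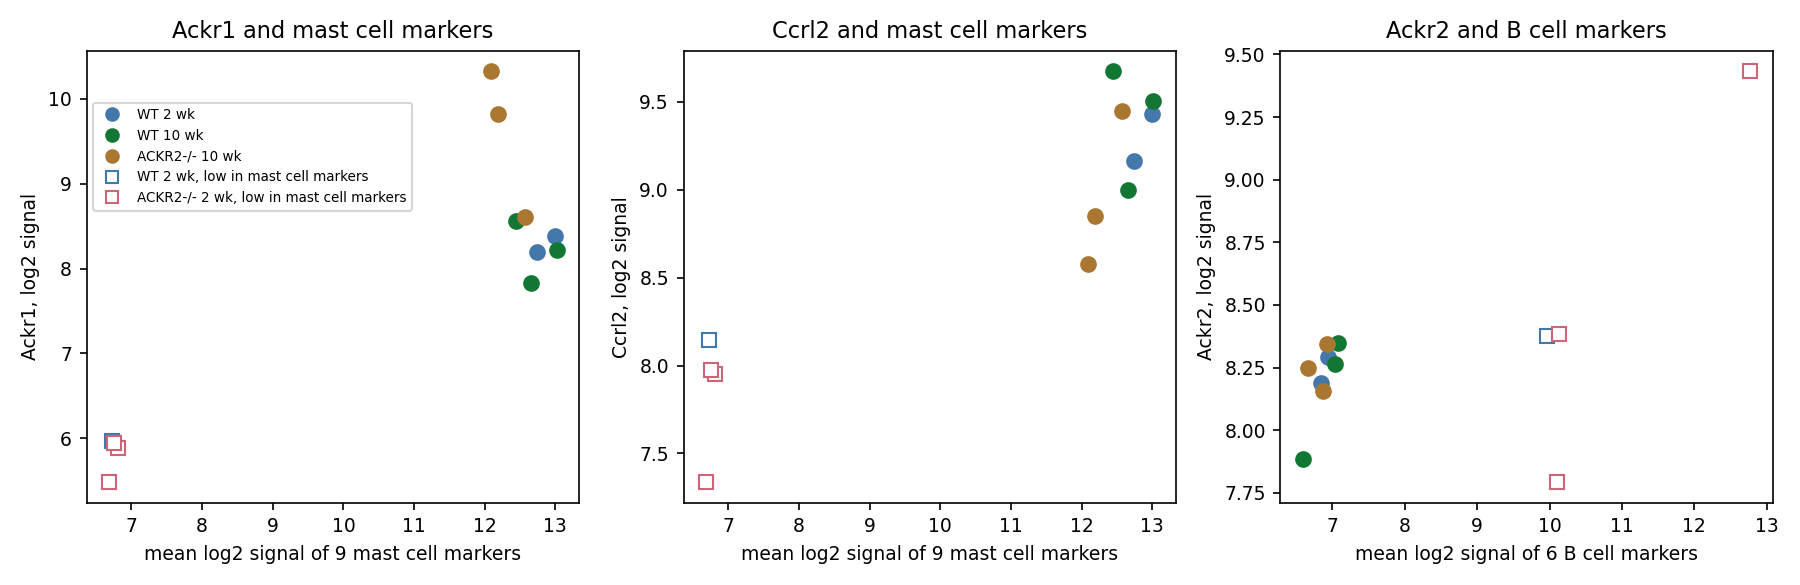
Log2 signal of Ackr1 and Ccrl2 against the mean of 9 mast cell markers and of Ackr2 against the mean of 6 B cell markers, 1 point per array, coloured by group, with open squares for the 4 arrays low in mast cell markers. Ackr1 and Ccrl2 separate the 4 arrays from the 8, while among the 8 the 2 arrays highest in Ackr1 (9.82 and 10.33) are not the ones highest in mast cell markers; the array at 12.77 in B cell markers is the one at 9.43 in Ackr2.

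The neighbourhood of Ackr1 on chromosome 1 holds a mast cell gene. In the RefSeq order the nearest measured genes were Olfr418 and then Fcer1a on one side and Cadm3, a cell adhesion molecule, and then Aim2, a sensor of cytosolic DNA, on the other. Cadm3 followed the same split as Ackr1, at 7.24 to 8.07 on the 4 arrays low in mast cell markers and 10.67 to 11.85 on the other 8. From 2 to 10 weeks on the ACKR2-deficient arrays Cadm3 rose by 3.73 ± 0.60 (limma adjusted p = 0.0137), Fcer1a by 8.77 ± 1.87 (adjusted p = 0.0148) and Olfr418 by 1.09 ± 0.22 (adjusted p = 0.0141). Aim2 differed by 0.60 ± 0.29 (adjusted p = 0.195). On ACKR2-deficient arrays 1, 2 and 3 at 10 weeks, Cadm3 read 10.96, 11.85 and 11.58, so within these it too was highest on arrays 2 and 3. Olfr418 (6.58, 7.41 and 7.10) and Aim2 (10.83, 11.08 and 11.79) shared this, whereas Fcer1a read 14.02, 14.09 and 14.14. At 10 weeks none of these 4 neighbours passed the threshold between the genotypes, with differences of 0.24 ± 1.87 for Fcer1a, 0.74 ± 0.22 for Olfr418, 0.58 ± 0.60 for Cadm3 and 1.13 ± 0.29 for Aim2 (adjusted p from 0.480 to 0.999). These SEs come from all 12 arrays, not from the 10-week spread alone. Fcer1a read 13.74 to 13.93 on the wild type arrays at 10 weeks. On wild type array 3 at 2 weeks it read 4.83, against 13.82 and 13.92 on arrays 1 and 2.

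**Figure D3:**
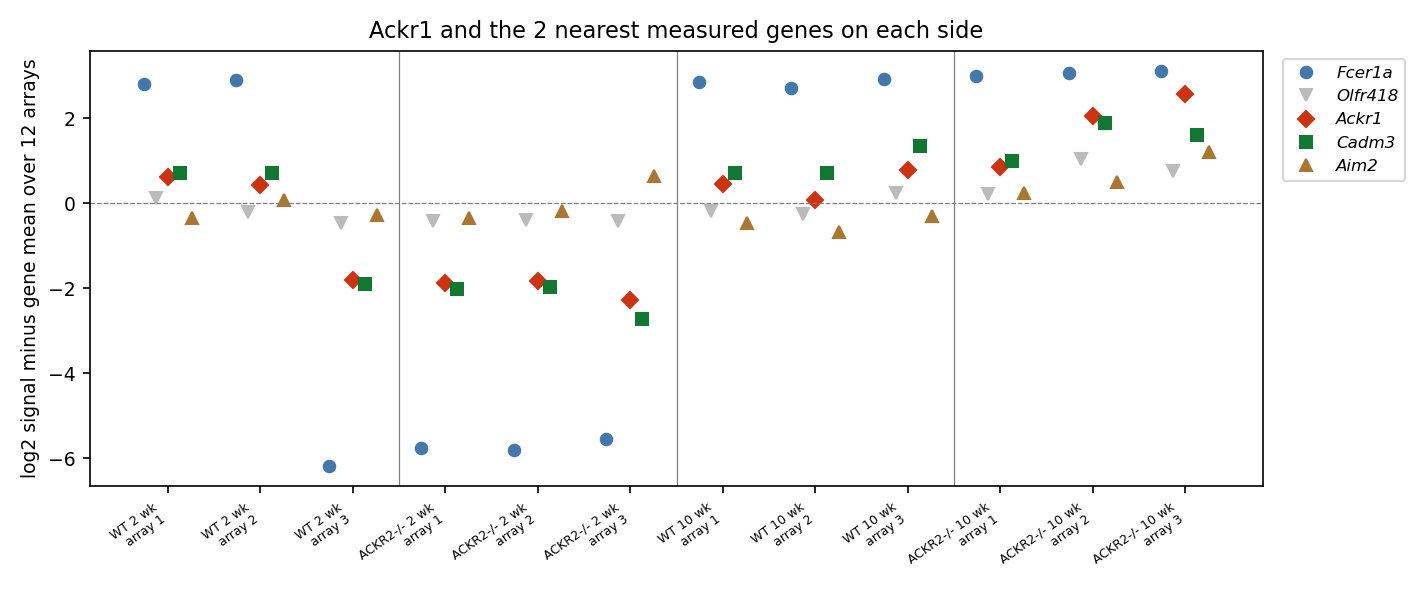
Log2 signal of Ackr1 and its nearest measured neighbours, each minus its own mean over the 12 arrays, for each array in the order of the groups (vertical lines part the groups). Ackr1, Cadm3 and Fcer1a are all below their means on wild type array 3 and ACKR2-/- arrays 1 to 3 at 2 weeks, and Aim2 is not low on those arrays as a set.

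The genes whose profiles were nearest to that of Ackr1 over the 12 arrays were Asphd2, Pdzk1ip1 and Far2, at root mean square differences of 0.34, 0.36 and 0.37, against a standard deviation of 1.53 for Ackr1. Far2 encodes a fatty acyl-CoA reductase. Asphd2 read 9.47, 11.54 and 11.65 on ACKR2-deficient arrays 1, 2 and 3 at 10 weeks, and 9.07 to 9.44 on the wild type arrays. Far2 read 9.68, 11.39 and 11.38 there and 9.18 to 9.56 on the wild type arrays. Both shared with Ackr1 the low values of the 4 arrays and the high values of ACKR2-deficient arrays 2 and 3. They were picked for closeness to Ackr1 over these same arrays, so this likeness comes from the choice.

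Ccrl2 showed the same split as Ackr1 in a narrower range, 2.34 log2 units. Its probe set (10597279) read 9.43, 9.17 and 8.15 on the arrays labelled wild type at 2 weeks and 7.95, 7.98 and 7.34 on those labelled ACKR2-deficient at 2 weeks. At 10 weeks it read 9.51, 9.0 and 9.67 for wild type and 9.45, 8.85 and 8.58 for ACKR2-deficient arrays. All 4 arrays low in mast cell markers lay at or below 8.15 and all other 8 at or above 8.58. Group means fell in the order wild type at 10 weeks, 9.39 ± 0.35 (SD, n = 3), ACKR2-deficient at 10 weeks, 8.96 ± 0.44, wild type at 2 weeks, 8.91 ± 0.68, and ACKR2-deficient at 2 weeks, 7.76 ± 0.36. The first 3 groups overlapped, and the last lay below the others.

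Ccrl2 rose by 1.20 ± 0.35 from 2 to 10 weeks on the arrays labelled ACKR2-deficient (limma adjusted p = 0.0402), with no overlap between the groups. This call was lost without any 1 of 8 arrays, namely any ACKR2-deficient array at 2 weeks (adjusted p = 0.0781, 0.0765 and 0.118 for arrays 1, 2 and 3), any ACKR2-deficient array at 10 weeks (0.124, 0.0974 and 0.0679) or wild type array 1 or 3 at 10 weeks (0.0558 and 0.0531). At 2 weeks the genotypes differed by -1.16 ± 0.35 (adjusted p = 0.225), and by -1.54 (adjusted p = 0.00329) without wild type array 3. At 10 weeks the difference was -0.43 ± 0.35 (adjusted p = 0.852), and on the wild type arrays the 10-week arrays differed from the 2-week ones by 0.48 ± 0.35 (adjusted p = 0.784). The change of the genotype difference between the weeks was 0.72 ± 0.50 (adjusted p = 0.616).

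Among the ACKR2-deficient arrays at 10 weeks, Ccrl2 and Ackr1 ran in opposite orders. Ccrl2 was 9.45 on array 1 and 8.58 on array 3, where Ackr1 was 8.61 and 10.33. Arrays 2 and 3, lower in Ccrl2, had lower means of monocyte and macrophage, neutrophil and basophil markers as well, and the part of those cells was not tested. The profile nearest to Ccrl2 was that of Slc7a5, a large amino acid transporter, at a root mean square difference of 0.19, then Niban1 (0.22) and Pdgfrb (0.25), against a standard deviation of 0.72 for Ccrl2. Slc7a5 read 12.49, 11.49 and 11.40 on ACKR2-deficient arrays 1, 2 and 3 at 10 weeks. It was also lower on arrays 2 and 3, but it was picked for closeness to Ccrl2 over these same arrays. Of the nearest measured genes on chromosome 9, Gm10030, Ltf, Lrrfip2 and Epm2aip1, none passed the threshold between weeks or genotypes. Ltf, which encodes the neutrophil granule protein lactoferrin, differed by -1.26 ± 0.45 (adjusted p = 0.548) between the genotypes at 10 weeks.

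Ackr3 stayed within 0.90 log2 units over all 12 arrays. Its probe set (10348451) read 6.99, 7.25 and 7.16 on the arrays labelled wild type at 2 weeks and 7.07, 7.24 and 7.88 on those labelled ACKR2-deficient at 2 weeks. At 10 weeks it read 7.17, 7.04 and 7.20 for wild type and 7.0, 7.14 and 6.98 for ACKR2-deficient arrays. All 4 groups overlapped with at least one other, and the single value apart was again that of ACKR2-deficient array 3 at 2 weeks, the array highest in B cell markers. Group means lay between 7.04 ± 0.09 (SD, n = 3) and 7.40 ± 0.43, and no comparison passed the threshold. The ACKR2-deficient arrays differed by 0.26 ± 0.18 (adjusted p = 0.505) at 2 weeks and by -0.10 ± 0.18 (adjusted p = 0.985) at 10 weeks.

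Ackr4 had the narrowest range of the 5 genes, 0.74 log2 units. Its probe set (10596222) read 6.66, 6.63 and 6.79 on the arrays labelled wild type at 2 weeks and 7.0, 6.89 and 7.22 on those labelled ACKR2-deficient at 2 weeks. At 10 weeks it read 6.48, 6.80 and 6.91 for wild type and 6.98, 6.76 and 6.93 for ACKR2-deficient arrays. Its highest value, 7.22, was also on ACKR2-deficient array 3 at 2 weeks. At 2 weeks every ACKR2-deficient array lay above every wild type array, and the difference was 0.34 ± 0.14 with an unadjusted p of 0.0300 and a limma adjusted p of 0.245. At 10 weeks the genotypes overlapped, with a difference of 0.16 ± 0.14 (adjusted p = 0.860). Tmem108, one of the nearest genes beside Ackr4 on chromosome 9, fell by 1.81 ± 0.31 (adjusted p = 0.0137) from 2 to 10 weeks on the ACKR2-deficient arrays, while Ackr4 itself differed by -0.14 ± 0.14 (adjusted p = 0.539). The signals of Ackr3 and Ackr4 cannot be set against background here, so a flat profile may be that of a transcript not detected.

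**Figure D4:**
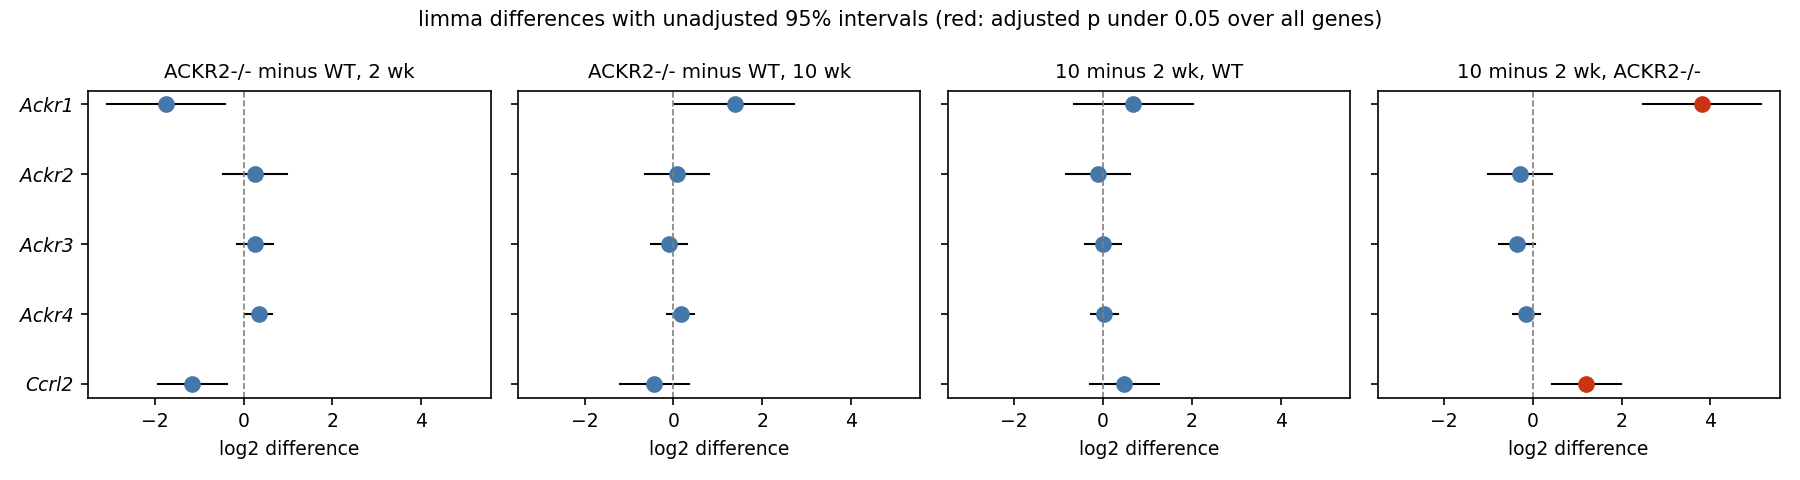
Limma log2 differences of the 5 genes in 4 comparisons (points) with unadjusted 95% intervals (lines); red points have an adjusted p under 0.05 over all genes. Ackr1 (3.82) and Ccrl2 (1.20) are the red points, both from 2 to 10 weeks on the arrays labelled ACKR2-/-, and the interval of Ackr2 spans 0 in all 4 panels.

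Counted over the family, limma called 2 of 5 genes from 2 to 10 weeks on the ACKR2-deficient arrays, both higher, and 0 of 5 in each other comparison. All genes gave 16.8% in the first and 0% in each of the others. At 2 weeks 3 of the 5 genes had an unadjusted p under 0.05, against 17.5% of all genes (3480). At 10 weeks it was 1 of 5 against 7.85% (1566), between the weeks on wild type arrays 0 of 5 against 6.65% (1326), on ACKR2-deficient arrays 2 of 5 against 30.2%, and for the interaction 1 of 5 against 11.4% (2271). Between the genotypes at 2 weeks the arrays did not overlap for 3 of 5 genes (Ackr1 and Ccrl2 lower, Ackr4 higher on the ACKR2-deficient arrays), against 13.6% of all genes (8.6% lower, 4.97% higher). At 10 weeks this held for Ackr1 alone, which was higher, against 14.6% in all and 8.61% higher, and between the weeks on wild type arrays for none of the 5, against 8.74%. A gene set of 5 gives shares in steps too coarse to set firmly against these backgrounds.

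The CC chemokines that ACKR2 binds moved in both directions between the weeks on the arrays labelled ACKR2-deficient. All 11 ligands listed were measured. From 2 to 10 weeks on the ACKR2-deficient arrays 2 rose, 1 fell and 8 did not pass the threshold, with a median log2 difference of 0.19 against 0.06 over all genes, of which 10.5% rose and 6.33% fell. Ccl2, which attracts monocytes, rose from 6.77 ± 0.15 to 13.26 ± 0.32 (SD, n = 3), by 6.49 ± 1.37 (SE; limma adjusted p = 0.0145). Ccl7, a relative of Ccl2, rose by 3.24 ± 0.95 (adjusted p = 0.0405). Ccl5, which T and NK cells make, fell by 3.95 ± 0.81 (adjusted p = 0.0142). T and NK cell markers averaged 8.77 to 10.89 on the 4 arrays and 6.29 to 6.85 on the other 8. Their part in the Ccl5 difference was not tested. The 2-week arrays of this comparison were all low in mast cell markers. Between the weeks on wild type arrays none of the 11 ligands passed the threshold. There Ccl2 read 13.42, 13.36 and 6.83 on arrays 1, 2 and 3 at 2 weeks, the last being low in mast cell markers, and 13.28 to 13.60 at 10 weeks.

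At 10 weeks 10 of the 11 ACKR2 ligands had a lower mean on the arrays labelled ACKR2-deficient, with a median difference of -1.13 against 0.0076 over all genes, and none passed the threshold. Of all genes 48.4% were below 0. The lowest p was that of Ccl24, an eosinophil attractant. Its signal was 11.17, 9.84 and 9.92 for wild type against 8.19, 7.37 and 7.28 for ACKR2-deficient, a difference of -2.69 ± 0.62 (limma adjusted p = 0.480) without overlap. Ccl22, which attracts cells with CCR4, differed by -1.14 ± 0.56 (adjusted p = 0.669) and Ccl4 by -0.84 ± 0.42 (adjusted p = 0.677). The 6 monocyte and macrophage markers were also lower in mean on the ACKR2-deficient arrays, as given above, and their part in this list was not tested. At 2 weeks 9 of the 11 were below 0, against 54.6% of all genes, with a median of -0.95 and none past the threshold.

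**Figure D5:**
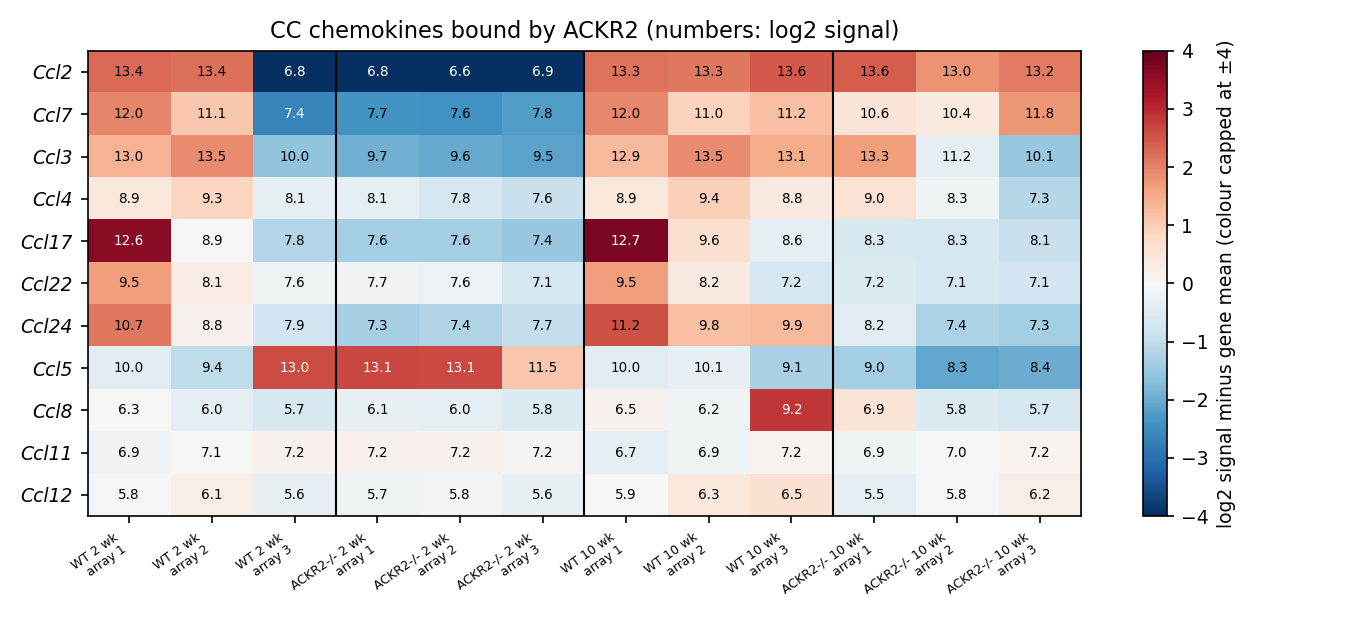
Log2 signal of the 11 CC chemokines bound by ACKR2 (rows) on the 12 arrays (columns, grouped by label); numbers are log2 signals and colours the difference from each gene's mean, capped at ±4. Ccl2 lies at or below 6.88 on the 4 arrays low in mast cell markers and at or above 12.95 on the others, and Ccl5 is high on the 4.

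The 8 ligands listed for ACKR1 shared 5 chemokines with those of ACKR2, among them the 3 called above. The other 3 were the neutrophil attractants Cxcl1, Cxcl2 and Cxcl5, and none of them passed the threshold in any comparison. Cxcl2 differed by -2.13 ± 0.88 (adjusted p = 0.588) between the genotypes at 10 weeks. It read 8.27, 9.55 and 7.30 for wild type and 6.30, 6.35 and 6.08 for ACKR2-deficient arrays, without overlap. No ligand of ACKR3 (Cxcl11, Cxcl12), ACKR4 (Ccl19, Ccl25) or CCRL2 (Rarres2, which encodes chemerin) was called. From 2 to 10 weeks on the ACKR2-deficient arrays their differences lay between -0.28 for Cxcl11 and 0.18 for Cxcl12. Ccl21a, a ligand of ACKR4, had no named probe set, and Ccl19 has near-identical gene copies that may share its probes, so its value is uncertain. Gpr182 and Pitpnm3, which have also been proposed as atypical receptors, were not called either.

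Of the signalling receptors for the same ligands, 5 of 11 fell, none rose and 6 did not pass the threshold between 2 and 10 weeks on the arrays labelled ACKR2-deficient, with a median of -1.59 against 0.06 over all genes, of which 6.33% fell. Ccr7, which guides lymphocytes and dendritic cells to lymph nodes and shares ligands with ACKR4, fell by 4.46 ± 0.80 (adjusted p = 0.0137). Cxcr4, the signalling receptor for the ACKR3 ligand CXCL12, fell by 3.00 ± 0.54 (adjusted p = 0.0137), and Ccr9, the receptor for the ACKR4 ligand CCL25, by 1.59 ± 0.41 (adjusted p = 0.0249). The other 2, named because only 5 were called, were Cmklr1, the chemerin receptor (-1.17 ± 0.31, adjusted p = 0.0278), and Ccr3, an eotaxin receptor (-2.21 ± 0.63, adjusted p = 0.0375). These transcripts fell together with B cell, T and NK cell, monocyte and macrophage, and dendritic cell markers, of which 6 of 6, 2 of 6, 4 of 6 and 4 of 6 fell, and the part of those cells was not tested.

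Between the genotypes at 10 weeks all 11 signalling receptors had a lower mean on the ACKR2-deficient arrays, with a median of -0.80. Over all genes 48.4% were below 0, with a median of 0.0076. None of these receptors passed the threshold, and no gene of the whole series did. Cxcr2, the receptor of the ACKR1 ligands CXCL1 and CXCL2, had the lowest p, at -2.59 ± 0.85 (limma adjusted p = 0.529). It read 10.11, 9.96 and 9.26 for wild type and 9.43, 6.00 and 6.11 for ACKR2-deficient arrays, so that array 1 lay with wild type and arrays 2 and 3 far below. Cxcr4 differed by -1.49 ± 0.54 (adjusted p = 0.555) and Cmklr1 by -0.80 ± 0.31 (adjusted p = 0.565). The monocyte and macrophage markers (9.19, 7.40 and 7.24) and the basophil markers (11.58, 9.67 and 9.68) stepped down from array 1 to arrays 2 and 3 as well, and the neutrophil markers less (7.44, 6.84 and 6.72). Their part in the Cxcr2 difference was not tested.

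Arrestins and receptor kinases couple atypical receptors to uptake. Of 6 measured, 2 rose, 1 fell and 3 did not pass the threshold from 2 to 10 weeks on the ACKR2-deficient arrays, where 10.5% of all genes rose and 6.33% fell. Arrb1, beta-arrestin 1, on which ACKR2 signalling to the cytoskeleton depends, rose by 1.37 ± 0.23 (adjusted p = 0.0137). It read 11.84, 12.23 and 12.11 on the ACKR2-deficient arrays at 10 weeks and 11.52 to 11.62 on the wild type ones, without overlap, at a difference of 0.50 ± 0.23 (adjusted p = 0.632). Grk5, a kinase of the same receptors, rose by 2.32 ± 0.48 (adjusted p = 0.0142), and Grk6, which is abundant in immune cells, fell by 1.44 ± 0.25 (adjusted p = 0.0137). Arrb2, beta-arrestin 2, differed by 0.33 ± 0.29 (adjusted p = 0.518). Of 10 genes of uptake and recycling 2 rose and none fell, a share near the 16.8% of all genes called in this comparison. They were Limk1 (0.77 ± 0.22, adjusted p = 0.0363) and Rac1 (0.38 ± 0.12, adjusted p = 0.0462), both known from the actin route by which ACKR2 is brought to the surface. Rab11a, of the recycling endosome, was next at 0.47 ± 0.17 (adjusted p = 0.0920). Between the genotypes at either week, and between the weeks on wild type arrays, no gene of these lists was called.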

How the data were processed

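The deposited table holds 35399 probe sets on 12 arrays as log2 values, made by the authors in Partek 6.5 with RMA, as the submitters' processing notes give it. The array is an Affymetrix whole-transcript design; the genome build is not given in the sources used here. RMA corrects background, equalises array distributions and summarises probes, so a global shift would be removed. No scanner files or detection calls were used, so background, slide and scan could not be examined. Array medians were 7.76 to 7.90, and the number of arrays limits the precision.

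A platform annotation gave 21789 probe sets 1 symbol, 1621 several and 11989 none. For 999 genes with several probe sets the one with the highest mean was kept, leaving 19938 genes. Signals of different genes were not compared. Neighbours and promoter windows come from RefSeq, GRCm38.p6.

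With limma 3.58.1 (R 4.3.3), a mean for each of the 4 groups was estimated from all 12 arrays (8 residual and 2.39 prior degrees of freedom). P-values were adjusted by Benjamini-Hochberg over all genes, with a threshold of 0.05. The fit was tested on simulated data with the same spread in every group and no split of arrays. That test does not cover the 4 arrays low in mast cell markers. Family and lists were chosen with earlier results of these data known. Genes named are the family, up to 3 of a list's genes by lowest p in a comparison, 2 neighbours per side, Fcer1a and Kit. Also named are the 3 nearest profiles for a gene spanning at least 1 log2 unit (predicted genes left out). Xist, Kdm5d, Tek, Cdh5, Alas2, Mcpt8, Prss34, Lilr4b, Cmklr1, Ccr3 and Arrb2 were named after their values were seen. The same holds for marker genes named within a list and others beside a count. Alternatives were array weights, median centring, a filter on low genes, only the groups compared, and every probe set of 1 symbol tested. The others were a trended, robust estimate of the spread, a replicate block, and leaving out each array or the 4 arrays low in mast cell markers. Same-numbered wild type arrays deviated together between 2 and 10 weeks (correlations of 0.166 to 0.359 across genes, against at most 0.023 for other numbers). In the other group pairs the lowest same-number correlation was -0.308.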

Additional observations from a re-analysis of the deposited data

How the results depend on the processing

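Of 475 values of the 5 genes under the alternatives, 434 kept their direction and their side of the threshold, 10 lost a call, 9 gained one and 22 changed sign. Most of the 475 had no call to lose. The calls between weeks on ACKR2-deficient arrays were lost in 2 of 19 alternatives for Ackr1 and in 8 of 19 for Ccrl2. With array weights, estimated gene by gene, limma called 8366 genes at 2 weeks, 5350 at 10 weeks, 1737 between weeks on wild type, 8914 between weeks on ACKR2-deficient arrays and 7330 for the interaction, with 3, 1, 0, 2 and 2 of the 5 genes among them. These weights favour arrays that resemble their group, and the cause of the extra calls was not tested. Weighted values of Ackr1 were -2.30 at 2 weeks, 1.94 at 10 weeks and 4.24 for the interaction, of Ccrl2 -1.31 at 2 weeks and 1.04 for the interaction, and of Ackr4 0.30 at 2 weeks. Signs turned with weights for Ackr2 (-0.11 at 2 weeks, -0.037 at 10 weeks, 0.0064 and 0.076 between weeks on wild type and ACKR2-deficient arrays, 0.070 for the interaction), and between weeks on wild type arrays for Ackr1 (-0.27), Ackr3 (-0.078) and Ccrl2 (-0.15). On those arrays median centring gave Ackr3 -0.035 and Ackr4 -0.0045, and the fit without the 4 arrays low in mast cell markers gave Ackr1 -0.090.

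Leaving out each array in turn gave 0 to 4738 genes called at 2 weeks, 0 to 129 at 10 weeks, 0 to 4994 between weeks on ACKR2-deficient arrays and 0 to 3138 for the interaction, and 0 to 2, 0, 0 to 2 and 0 to 1 of the 5 genes. The highest counts at 2 weeks and for the interaction came without wild type array 3 at 2 weeks, the 129 without ACKR2-deficient array 1 at 10 weeks, and 0 calls between weeks without ACKR2-deficient array 2 or 3 at 10 weeks. Over those fits Ackr2 ranged from -0.20 to 0.62 at 2 weeks, -0.058 to 0.18 at 10 weeks, -0.21 to 0.022 and -0.66 to 0.16 between weeks, and -0.54 to 0.28 for the interaction. Between weeks on wild type arrays Ackr1 ranged from -0.090 to 1.12, Ackr3 from -0.068 to 0.062 and Ackr4 from -0.057 to 0.16. A filter on low signals kept 11094 genes with Ackr1, Ackr2 and Ccrl2. With the replicate block the calls between weeks on ACKR2-deficient arrays held (Ackr1 adjusted p = 0.0195, Ccrl2 0.0304) and the block changed no other call; with the block on wild type arrays only, chosen after the pairing was checked, Ackr1 had an adjusted p of 0.934. No signal over background could be given, which limits Ackr3 and Ackr4 most.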
